A study of Drosophila melanogaster with 12 samples.

Results

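Shavenbaby (Svb) is a zinc-finger transcription factor made by the ovo locus of Drosophila. In the embryonic epidermis the full-length protein acts as a repressor of transcription, and a truncated form, made when the proteasome removes the N-terminal part, acts as an activator. In the adult midgut Svb is known for its role in the maintenance of intestinal stem cells, the dividing progenitors that renew the gut lining. A gene whose transcript falls under the activator form and rises under the repressor form moves against the names of both forms. The genes described here are 60 such genes, out of 8802 in the deposited count table.

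The members were chosen by their levels in counts per 1000000 counts of the library (CPM). Every SvbACT library had to lie below every control library, every SvbREP library above every control library, the SvbREP mean had to be at least 2 times the SvbACT mean, and the SvbREP mean at least 5 CPM. The order of the groups alone was met by 115 genes, and order with ratio by 68. The minimum left 62 genes, of which 2 antisense RNAs were left out by name. All 60 members are annotated as protein-coding, and all 60 passed the filter on low counts used for testing. Because the SvbREP, SvbACT and control libraries chose the members, their values are given below as a description, and the libraries labelled svb RNAi are the only ones the choice did not use.

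The samples were intestinal stem cells sorted by fluorescence from posterior midguts (regions R3 to R5) of virgin females, with 3 libraries in each of 4 groups and more than 20 females behind each sample. All 4 groups carried esg-Gal4, UAS-GFP and tubGal80TS, each in 1 copy; the SvbREP flies also carried UAS-Svb3Kmut::GFP, the SvbACT flies UAS-SvbACT::GFP and the svb RNAi flies UAS-SvbRNAi, while control flies came from a cross to Canton-S and had no further UAS transgene. Flies were 9 days old at dissection, after 3 days at room temperature and 6 days at 29 °C, the temperature at which Gal80TS no longer holds Gal4 back. As a model this has limits: esg-Gal4 is active in enteroblasts as well as in stem cells, and the controls differ from the other groups by the cross as well as by the transgene. The labels do not state whether the replicates of a group came from separate crosses.

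Library totals ran from 2965852 to 5786969 counts in SvbREP, 4361322 to 6036911 in SvbACT, 4298998 to 5518895 in svb RNAi and 5557969 to 6575392 in control, so 3 counts, the floor used here, correspond to 0.456 to 1.01 CPM. The ovo gene had 6145 to 12642 counts per library in SvbREP and 8803 to 11901 in SvbACT. It had 225, 206 and 209 counts in the libraries labelled svb RNAi, against 4, 64 and 3 in control. In direction this is opposite to a knockdown (log2 fold change 3.29, SE 0.522, edgeR adjusted p = 0.000241). With 4 and 3 counts in control replicates 1 and 3, near the floor, a fall below control could not be read from ovo. Whether RNA of the UAS-SvbRNAi transgene was counted at ovo was not tested. What is said below of svb RNAi therefore holds for libraries carrying that label, with no knockdown seen in the ovo counts. Progenitor markers were detected in every group. The summed level of the 8 of 10 listed markers in the table, among them esg and Dl, was 12896 to 15674 CPM in SvbREP, 15065 to 17862 in SvbACT, 12682 to 13782 in svb RNAi and 14223 to 16641 in control. Of these markers esg, the gene whose driver was used, was lower in SvbREP, at 1292, 1265 and 1312 CPM against 2094, 1859 and 1927 in control (log2 fold change -0.65, SE 0.115, edgeR adjusted p = 0.00345), and not called in SvbACT. Of 19 cell cycle genes tested, 12 were higher in SvbACT and 0 in SvbREP, each against control (edgeR adjusted p under 0.05). Of all 7992 genes tested, 1.35% were higher in SvbREP, and that share is not given here for SvbACT. In SvbREP 5 of the 19 had an unadjusted edgeR p under 0.05, in either direction. Their sums over the list were 793 to 873 CPM in SvbREP, 1356 to 1550.0 in SvbACT and 774 to 975 in control. SvbREP replicates 1 and 2 stood apart in enteroendocrine markers: the 15 of 17 listed genes in the table summed to 3335, 4351 and 866 CPM in SvbREP replicates 1, 2 and 3. The sums were 704 to 1112 CPM in SvbACT, 924 to 2142 in svb RNAi and 664 to 1573 in control. Over 14 enterocyte markers tested the median log2 fold change in SvbREP was -2.37, with alphaTry and mesh called lower. For mesh, SvbREP had 2.36, 8.09 and 2.07 CPM and control 4.14, 46.6 and 37.7. In SvbACT the enterocyte median was -1.30, with alphaTry called lower. The tracheal gene trh was called higher in SvbREP, at 2.02, 5.30 and 1.38 CPM against 0.18, 0 and 0 in control.

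Taken over the set, the members' median level relative to the control mean was 189%, 179% and 152% in SvbREP replicates 1, 2 and 3. It was 47.2%, 44.3% and 43.2% in SvbACT and 53.5%, 52.8% and 47.9% in the libraries labelled svb RNAi. SvbREP replicate 3, the library with the lowest enteroendocrine sum of its group, held the lowest SvbREP value for 39 of 60 members and the highest for 13. The part of the enteroendocrine, enterocyte and tracheal markers, of esg and of the cell cycle genes in the members' levels was not tested. None of the 60 members is on any of the marker lists. In bulk samples, fewer cells of a type and less RNA per cell cannot be told apart.

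**Figure D1:**
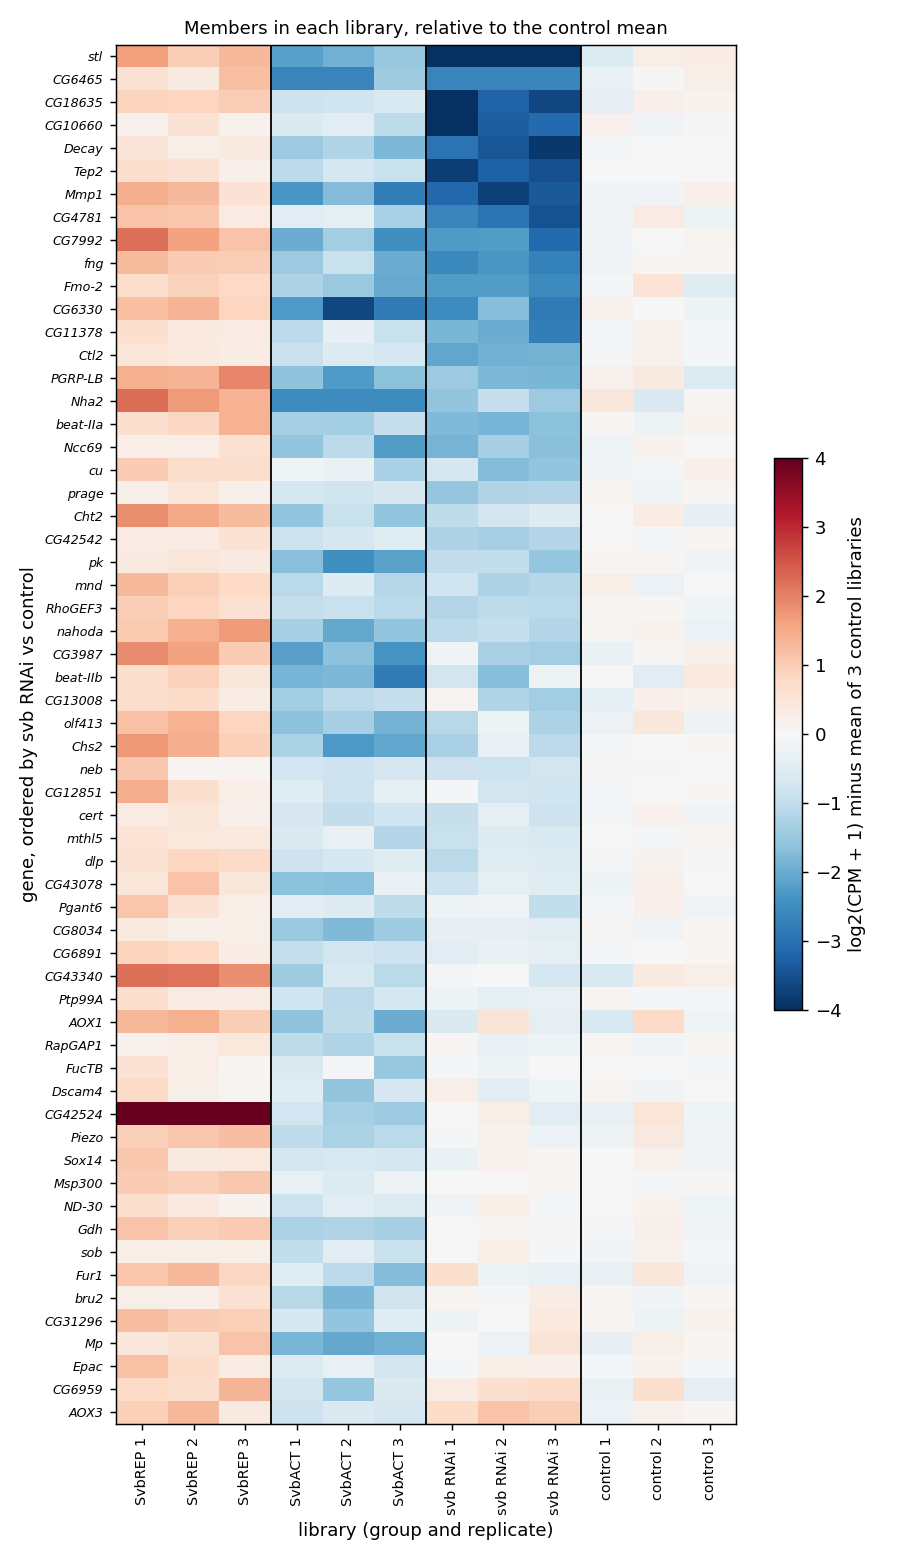
Levels of the 60 members (rows) in the 12 libraries (columns), as log2(CPM + 1) minus the mean of the 3 control libraries; red is above and blue below control, and the colour scale stops at 4 in either direction. SvbREP columns are red and SvbACT columns blue by the choice of members, while the svb RNAi columns run from dark blue at the top (stl) to orange at the bottom (AOX3).

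The SvbREP mean was between 2 and 3 times the SvbACT mean for 24 members, between 3 and 5 times for 15, between 5 and 10 times for 10 and at least 10 times for 10. For Nha2, which encodes a sodium-proton antiporter, no ratio can be given. It had 26.0, 17.6 and 13.8 CPM in SvbREP, 0 counts in every SvbACT library, and 6.84, 2.84 and 5.17 CPM in control. Measured against the mean floor of 0.599 CPM per library, Nha2 was at least 31.9-fold lower in SvbACT than in SvbREP. Just inside the ratio threshold lay CG10660, sob and prage, at 2.00, 2.02 and 2.02, and just outside it sif, Ntan1 and CG9743, at 1.97, 1.96 and 1.95. Just inside the minimum lay CG12851, CG31296 and FucTB, with SvbREP means of 5.07, 5.31 and 5.51 CPM, and just outside it CG9449, CG31183 and qvr, at 4.79, 3.68 and 3.46 CPM.

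In the deposited counts, 23 members were called higher in SvbREP than in control (background 1.35% of 7992 genes tested) and 46 lower in SvbACT than in control (background 5.23%), at an edgeR quasi-likelihood adjusted p under 0.05. Both calls were made for 21 members. Since these contrasts chose the members, nothing is read from the counts. Without SvbREP replicate 1, SvbREP replicate 2 or control replicate 3, the count for SvbREP was 13, 14 and 14.

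Among members with a ratio, the widest separation belonged to CG42524, an uncharacterised gene on chromosome 2R (15613854 to 15657214, plus strand, Ensembl BDGP6.54 in dm6 coordinates) whose longest annotated protein has 84 residues. It had 443, 479.5 and 417 CPM in SvbREP and 10.1, 6.52 and 5.96 CPM in SvbACT. It had 17.9, 21.8 and 12.7 CPM in svb RNAi and 14.4, 25.4 and 15.7 CPM in control. The SvbREP mean was 59.3 times the SvbACT mean and 24.1 times the control mean, while svb RNAi and control overlapped (log2 fold change -0.22, SE 0.220, edgeR adjusted p = 0.577). No other member exceeded control by as much in SvbREP: next came CG43340, at 4.33 times its control mean.

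Per kilobase of exon, the most abundant member in SvbREP was Msp300, the nesprin that links nuclei to the actin cytoskeleton, at 212.5 CPM per kb in SvbREP, 82.3 in SvbACT, 105 in svb RNAi and 104 in control. Its exons cover 69810 bp on chromosome 2L (5100877 to 5207002, plus strand). Msp300 took 14882, 14104 and 15524 CPM in SvbREP, 5974, 4947 and 6314 in SvbACT, 7181, 7132 and 7760 in svb RNAi and 7425, 6959 and 7478 in control. Summed over all 60 members the range was 23527 to 24867 CPM in SvbREP and 7602 to 9005 in SvbACT, 10558 to 11190 in svb RNAi and 12843 to 13065 in control, and Msp300 made up more of these sums than the other 59 genes together in every library.

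The comparison of svb RNAi with control asked how genes that fall under one Svb form and rise under the other behave in the cross that targets svb. The members were mostly lower. Of 60 members, 34 (56.7%) had a lower level in the group labelled svb RNAi, against 13.7% of the 7992 genes tested; 1 (1.67%) was higher, against 6.74% of genes tested; and 25 were not called (edgeR quasi-likelihood test, adjusted p under 0.05). The median log2 fold change was -0.97 over the members and 0.02 over all genes tested. Of the 34, 25 fell by more than 2-fold and 16 by more than 4-fold. In CPM, without the TMM factors of the fit, all 3 svb RNAi libraries lay below all 3 control libraries for 37 members (61.7%, background 15.8%). They lay above them for 1 (background 23.3%), and overlapped for 22.

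Lower levels under the svb RNAi label were also frequent among genes with the opposite pattern. The 81 genes that met the mirrored rule, raised by SvbACT and lowered by SvbREP, included 40 (49.4%) lower and 10 (12.3%) higher in svb RNAi, with a median log2 fold change of -0.54. The difference between the gene sets was not tested. Both sets were chosen with the same control libraries that enter the svb RNAi comparison, and the choice favours genes whose control libraries lie close together: the median coefficient of variation in control was 11.6% over the members and 18.0% over all genes tested. Its part in the counts was not tested.

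**Figure D2:**
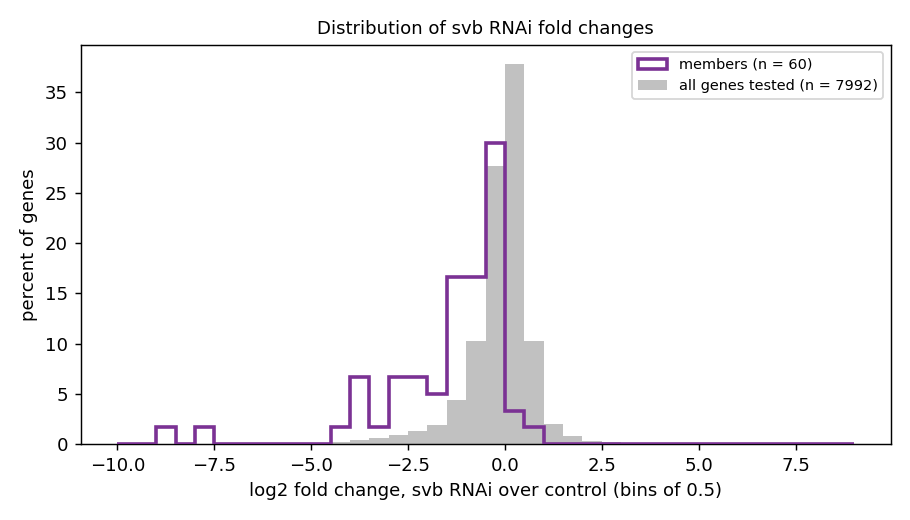
Share of genes (percent, vertical axis) by log2 fold change of svb RNAi over control in bins of 0.5 (horizontal axis), for the 60 members (purple outline) and for all 7992 genes tested (grey). The members lie to the left of the bulk, with a median of -0.97 against 0.02.

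**Figure D3:**
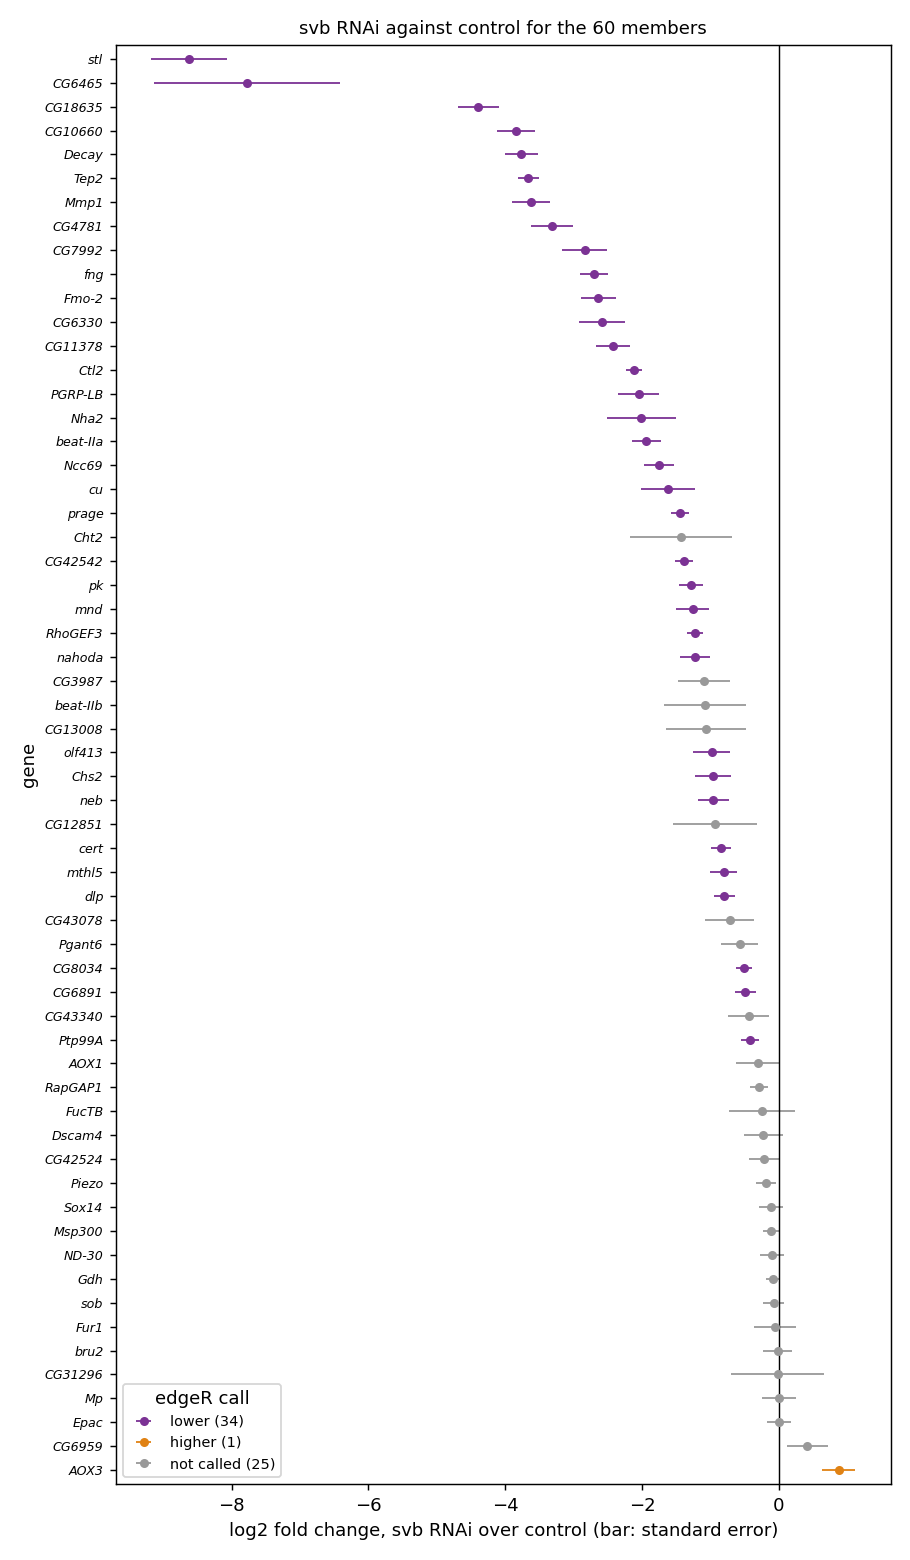
Log2 fold change of svb RNAi over control (horizontal axis) with its standard error for each of the 60 members (rows), coloured by the edgeR call; 34 were lower, 1 higher and 25 not called. The values of stl and CG6465, at the top, rest on at most 1 count in svb RNAi and depend on the prior count of the fit.

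Cell markers moved in the same comparison. Of 8 progenitor markers tested, Dl, zfh2, klu, Sox100B and Sox21a were lower in svb RNAi and 0 higher (edgeR adjusted p under 0.05). Of 19 cell cycle genes tested, fzy, polo, Mcm5 and Top2 were higher and CycE lower; their summed level was 1226 to 1371 CPM in svb RNAi and 774 to 975 CPM in control. Among 14 enterocyte markers tested, Myo31DF was lower, at 170, 222 and 213 CPM in svb RNAi and 358, 411 and 373 in control. It was a large part of the list sums, 263 to 431 CPM in svb RNAi and 394 to 744 CPM in control. Other markers went both ways: mesh averaged 30.1 CPM in svb RNAi and 29.5 in control, and Amy-p 27.7 and 48.2. Control replicate 1 was low in both, with mesh at 4.14 CPM against 46.6 and 37.7, and Amy-p at 4.68 against 82.1 and 57.8. Among 11 enteroendocrine markers tested, ITP was higher and Mip and Tk lower. Mip had 0 counts in every svb RNAi library. So did CCHa2, which was at or under the floor of 3 counts in control too, at 0.36, 0 and 0.456 CPM. The lists for visceral muscle (7 tested), hemocytes (2), neurons (5), trachea (2) and epidermal svb targets (5) had 0 edgeR calls and 0 DESeq2 calls. At an unadjusted p under 0.05, edgeR found 0 genes of the muscle list, 0 of the hemocyte list and 1 each of the neuron, trachea and epidermal lists. The part of these markers in the members' fall was not tested.

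The mean svb RNAi level in CPM lay below the SvbACT mean for 23 members, between SvbACT and control for 25, between control and SvbREP for 11, and above SvbREP for 1. CPM leaves out the TMM factors of the fit, which were 1.02 to 1.10 in svb RNAi and 0.946 to 0.993 in control. For members near control the side therefore depends on the scale. Of the 11, none was called. CG6959 (0.42) and Epac (0.01) had edgeR log2 fold changes above 0, and the others lay between -0.12 and 0. All 3 svb RNAi libraries were below all 3 SvbACT libraries for Mmp1, stl, fng, Fmo-2, beat-IIa, Decay, CG18635, CG4781, Tep2, CG11378, Ctl2, CG42542, prage and CG10660. The share of all genes tested with that order was not counted. The SvbACT values of this comparison were used in choosing the members, so the order is a description.

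Of 5 genes of the extracellular matrix and cell surface, 3 were lower in svb RNAi, with a median log2 fold change of -0.80 over the 5. Mmp1 (chromosome 2R, 24671294 to 24688184, minus strand), a matrix metalloproteinase, had 450.5, 408 and 247 CPM in SvbREP, 32.1, 49.1 and 23.5 in SvbACT, 17.7, 11.4 and 15.0 in svb RNAi and 153, 153 and 189 in control. Its svb RNAi level was 8.89% of control (log2 fold change -3.62, SE 0.275, edgeR adjusted p = 1.26e-07). The gene stl (chromosome 2R, 22807860 to 22815993, plus strand) encodes an ADAMTS-type metalloproteinase. It had 104, 65.6 and 81.2 CPM in SvbREP and 6.42, 7.75 and 10.6 in SvbACT, against 22.1, 38.6 and 39.8 in control. In svb RNAi it received 1 count over 3 libraries, against 602 in control, a ratio of 0.00198 (95% counting interval 5.00e-05 to 0.0111; edgeR adjusted p = 2.29e-08). The glypican gene dlp, whose product carries Wingless and Hedgehog at the cell surface, was lower by a smaller margin. It had 217, 257 and 245 CPM in SvbREP and 80.3, 88.1 and 102 in SvbACT. It had 67.5, 101 and 99.7 CPM in svb RNAi and 134, 159 and 136 in control, without overlap (log2 fold change -0.80, SE 0.152, edgeR adjusted p = 0.00122). Mp, the collagen XV/XVIII gene, and Fur1, a furin proprotein convertase, were not called: Mp averaged 31.1 ± 8.83 CPM in svb RNAi and 28.7 ± 5.55 in control (SD, n = 3 each), and Fur1 34.7 ± 13.5 and 33.0 ± 9.85 CPM.

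Of the chitin genes, Chs2, the chitin synthase of the gut's peritrophic matrix, had 248, 201 and 144 CPM in SvbREP, 29.8, 14.3 and 16.6 in SvbACT, 29.5, 59.8 and 35.2 in svb RNAi and 69.6, 74.3 and 76.8 in control. It was lower in svb RNAi (log2 fold change -0.96, SE 0.267, edgeR adjusted p = 0.0174), but lost the call without svb RNAi replicate 1, svb RNAi replicate 3 or control replicate 3. Cht2, a chitinase, was close to the floor outside SvbREP. It held 3 counts over 3 libraries in SvbACT and 91 in SvbREP, a ratio of 0.0266 (95% counting interval 0.00538 to 0.0802), and was not called in svb RNAi.

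The glycosyltransferase fng modifies Notch and sets which ligand the receptor answers. At its locus (chromosome 3L, 20925891 to 20949512, minus strand) it had 364, 304 and 298 CPM in SvbREP, 54.6, 79.9 and 37.4 in SvbACT, 24.7, 29.2 and 22.5 in svb RNAi and 136, 159.8 and 157 in control. No library of 1 group fell within the range of another, and svb RNAi was at 16.9% of control (log2 fold change -2.70, SE 0.203, edgeR adjusted p = 1.20e-07). Pgant6, a transferase that starts mucin-type O-glycans, and FucTB, a fucosyltransferase, were not called, with log2 fold changes of -0.57 and -0.25.

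Genes of innate immunity and cell death, 3 in number, were all lower in svb RNAi. Tep2 (chromosome 2L, 7693727 to 7701601, minus strand), a secreted thioester protein, had 700.3, 646 and 498 CPM in SvbREP, 205, 265 and 233 in SvbACT, 30.2, 43.7 and 36.6 in svb RNAi and 436, 419.7 and 428 in control. It had the smallest p of the 60 members (log2 fold change -3.66, SE 0.157, edgeR adjusted p = 4.58e-10). Decay (chromosome 3R, 16499058 to 16501050, minus strand), an effector caspase, had 83.6, 69.2 and 75.9 CPM in SvbREP, 20.6, 24.9 and 16.1 in SvbACT, 6.75, 4.51 and 3.08 in svb RNAi and 56.7, 59.9 and 59.3 in control (log2 fold change -3.77, SE 0.237, edgeR adjusted p = 1.83e-08). PGRP-LB, an amidase that breaks down peptidoglycan and so damps Imd signalling, had 48.6, 46.9 and 70.0 CPM in SvbREP and 5.04, 2.85 and 4.97 in SvbACT. Its svb RNAi libraries held 5.82, 4.32 and 4.17 CPM and its control libraries 19.8, 22.9 and 11.7 CPM (log2 fold change -2.05, SE 0.306, edgeR adjusted p = 0.000132). Tep2 and Decay were lower in svb RNAi than in any SvbACT library, while PGRP-LB overlapped SvbACT.

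**Figure D4:**
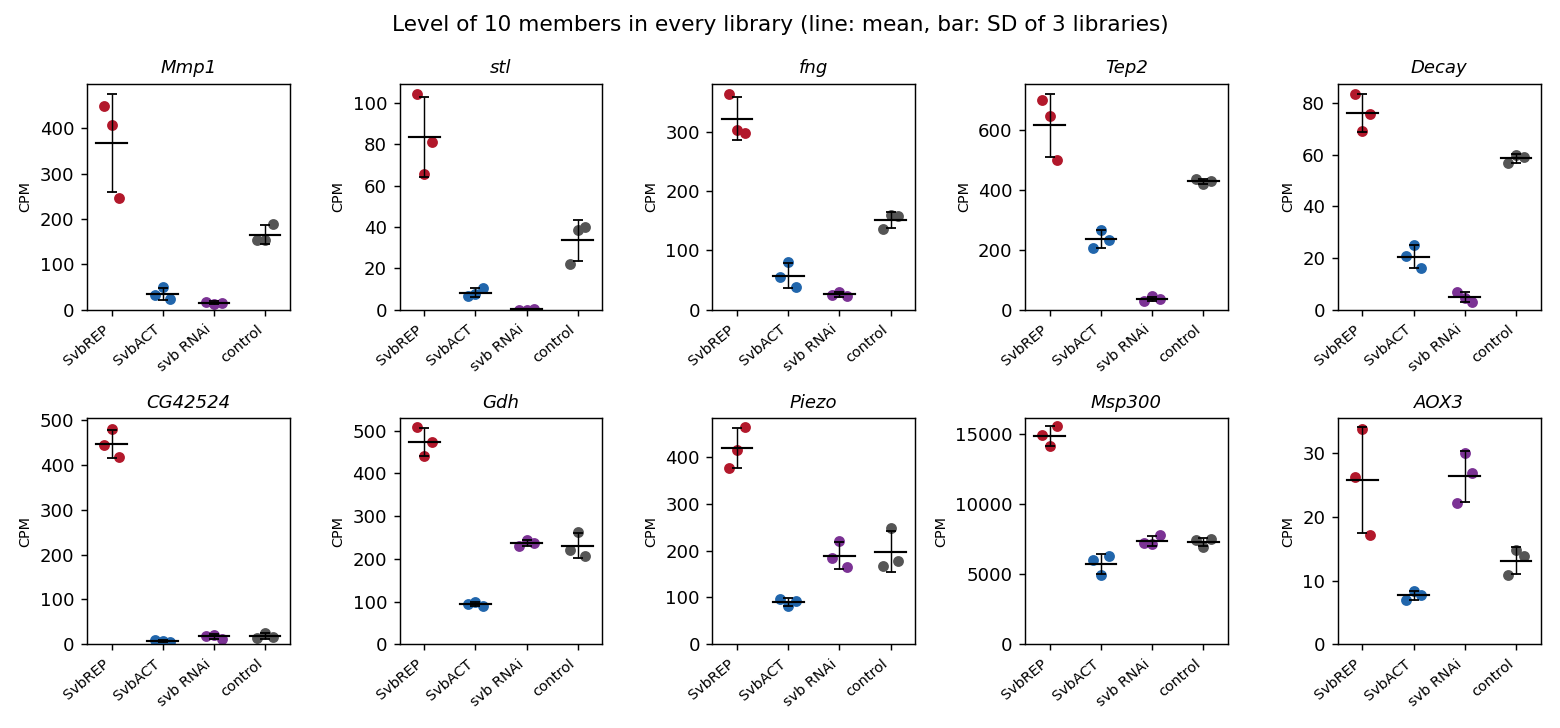
CPM (vertical axes, each from 0) of 10 members in every library by group, with each group's mean (line) and SD of 3 libraries (bar). In the upper row svb RNAi lies below control; in the lower row CG42524, Gdh, Piezo and Msp300 overlap control in svb RNAi, and AOX3 lies above it.

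Of 5 transporter and channel genes, 4 were lower in svb RNAi. Ctl2, a choline transporter-like gene, had 271, 258 and 239.7 CPM in SvbREP and 104, 134 and 119 in SvbACT. It had 45.6, 50.2 and 51.6 CPM in svb RNAi and 185, 219 and 184 in control (log2 fold change -2.12, SE 0.121, edgeR adjusted p = 5.84e-09). Ncc69, a sodium-potassium-chloride cotransporter, was at 51.6 ± 10.1 CPM in svb RNAi and 159 ± 16.5 in control (SD, n = 3 each; log2 fold change -1.75), and mnd, an amino acid transporter, at 10.7 ± 2.02 and 23.5 ± 4.01 CPM (log2 fold change -1.26). The fourth was Nha2, at 0.930, 1.96 and 1.09 CPM in svb RNAi. The exception was Piezo (chromosome 2L, 8163073 to 8190137, plus strand), a mechanosensitive cation channel that marks precursors of enteroendocrine cells in this tissue. Piezo had 377, 415 and 463 CPM in SvbREP and 96.3, 80.9 and 92.4 in SvbACT. Its svb RNAi libraries, at 184, 220.3 and 164 CPM, overlapped control, at 168, 247 and 177 CPM (log2 fold change -0.19, SE 0.144, edgeR adjusted p = 0.427). SvbREP replicate 3, with an enteroendocrine marker sum of 866 CPM against 3335 and 4351 in the others, held the highest Piezo value of its group. Over the 60 members that library held the lowest SvbREP value for 39 and the highest for 13. The part of enteroendocrine cells in the Piezo level was not tested.

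The 6 genes grouped under metabolism showed every outcome. Gdh (chromosome 3R, 23935958 to 23943101, minus strand), the mitochondrial glutamate dehydrogenase, had 508, 440.5 and 473 CPM in SvbREP, 94.9, 99.7 and 90.3 in SvbACT, 231, 245 and 237 in svb RNAi and 221, 263 and 207 in control. Its svb RNAi libraries lay within the control range (log2 fold change -0.08, SE 0.102, edgeR adjusted p = 0.662). Fmo-2, a flavin-containing monooxygenase, fell to 8.51 ± 1.10 CPM in svb RNAi, against 48.7 ± 17.7 in control (SD, n = 3 each; log2 fold change -2.64, edgeR adjusted p = 1.70e-06). The ceramide transfer gene cert was lower (log2 fold change -0.85), and ND-30, a complex I subunit, was not called (-0.10).

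The aldehyde oxidase AOX3 was the 1 member higher in svb RNAi. It had 26.3, 33.8 and 17.1 CPM in SvbREP, 6.88, 8.36 and 7.79 in SvbACT, 22.1, 30.0 and 26.8 in svb RNAi and 10.8, 14.8 and 13.8 in control. The svb RNAi libraries were all above control (log2 fold change 0.87, SE 0.245, edgeR adjusted p = 0.0184), but the call was lost without svb RNAi replicate 2, svb RNAi replicate 3 or control replicate 1. AOX3 (chromosome 3R, 15542748 to 15548188), its paralog AOX1 (15532137 to 15537292) and CG31296 (15530072 to 15531473) lie together on the minus strand, with AOX2 as the 1 coding gene between the AOX members. AOX1 had 169.6, 182 and 136 CPM in SvbREP, 21.3, 33.2 and 16.2 in SvbACT, 45.4, 97.3 and 51.1 in svb RNAi and 43.9, 116 and 60.4 in control. It was not called in svb RNAi (log2 fold change -0.31, SE 0.321, edgeR adjusted p = 0.580). AOX2, between them, averaged 0.205 CPM in SvbREP, 0 in SvbACT, 0.121 in svb RNAi and 0.516 in control. Reads shared between paralogs could have been left out or counted for either, so the AOX counts carry that uncertainty.

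Among cell adhesion molecules of the immunoglobulin family, beat-IIa, a beaten path gene known from axon guidance, fell to 22.3, 20.8 and 24.3 CPM in svb RNAi, against 82.0, 68.6 and 86.2 in control (log2 fold change -1.94, SE 0.212, edgeR adjusted p = 6.04e-06). Its SvbREP libraries held 124, 140.0 and 209 CPM and its SvbACT libraries 31.0, 30.0 and 40.7 CPM. Its paralog beat-IIb averaged 10.5 CPM in SvbREP, 0.645 in SvbACT, 3.17 in svb RNAi and 6.20 in control, and was not called (log2 fold change -1.08, edgeR adjusted p = 0.257). Ptp99A, a receptor tyrosine phosphatase, fell by 0.42 on the log2 scale, a call lost without svb RNAi replicate 2 or 3 or control replicate 1 or 3. Dscam4 was not called (-0.23).

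Regulators of small GTPases and polarity showed both outcomes. The planar polarity gene pk had 364, 394 and 361 CPM in SvbREP and 87.6, 51.0 and 63.3 in SvbACT. Its levels were 144, 143 and 97.1 CPM in svb RNAi and 298, 299 and 254 CPM in control (log2 fold change -1.28, edgeR adjusted p = 4.51e-05). RapGAP1, which switches Rap1 off, and Epac, the cAMP-responsive factor that switches it on, were not called, with log2 fold changes of -0.29 and 0.01.

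Of 4 genes grouped under transcription and RNA, 1 was called under the svb RNAi label. Sox14, a SoxC factor induced by ecdysone, averaged 107 ± 16.6 CPM in svb RNAi and 106 ± 11.8 in control (SD, n = 3 each). The odd-skipped family gene sob averaged 55.4 ± 6.26 and 53.3 ± 6.18 CPM, and the RNA-binding protein gene bru2 605 ± 70.9 and 562 ± 41.0 CPM. Their SvbREP means were 166, 63.0 and 716 CPM and their SvbACT means 66.1, 31.3 and 245 CPM. The called gene was cu, a gene of the nocturnin family, at 3.63 ± 1.90 CPM in svb RNAi and 10.1 ± 1.40 in control (log2 fold change -1.62, edgeR adjusted p = 0.00778). Of the cytoskeletal genes, the kinesin gene neb was lower (45.5 ± 2.18 CPM in svb RNAi and 80.9 ± 2.56 in control; log2 fold change -0.96) and Msp300 was not called (-0.11, SE 0.120).

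The 22 members without a role group, most of them known by a CG number, included 14 lower and 8 not called in svb RNAi. CG18635 fell furthest among those detected in every svb RNAi library: it had 64.7, 63.3 and 68.9 CPM in SvbREP, 18.8, 19.6 and 22.4 in SvbACT, 0.698, 2.75 and 1.81 in svb RNAi and 27.0, 39.8 and 37.9 in control (log2 fold change -4.39, SE 0.300, edgeR adjusted p = 4.30e-08). CG10660, the member nearest the ratio threshold, had 72.8, 97.1 and 72.4 CPM in SvbREP and 42.4, 47.3 and 31.3 in SvbACT. It had 2.09, 5.69 and 6.52 CPM in svb RNAi and 72.0, 58.8 and 62.7 in control (log2 fold change -3.85, SE 0.282, edgeR adjusted p = 9.00e-08). A narrow separation between SvbREP and SvbACT thus stood beside 1 of the deeper falls in svb RNAi. CG6465 had 0 counts in every svb RNAi library and 94 counts over the control libraries, so it was at least 8.58-fold lower when measured against the floor of 0.610 CPM per library. CG7992 was at 5.48 ± 1.92 CPM in svb RNAi and 35.5 ± 2.71 in control (SD, n = 3 each; log2 fold change -2.84), and CG6330 at 5.77 ± 2.87 and 31.7 ± 4.30 CPM (log2 fold change -2.59). CG3987 missed the threshold (log2 fold change -1.10, edgeR adjusted p = 0.0519) but was called lower under 6 of 17 alternatives, over which its log2 fold change ran from -1.72 to -0.88. Among these 6 were DESeq2 (adjusted p = 0.0276), the fit with a replicate block (edgeR adjusted p = 0.0224) and the fit without svb RNAi replicate 1 (log2 fold change -1.72, edgeR adjusted p = 0.00372). The authors' deposited table also called CG3987 lower.

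Other members without a role group followed the same division. The gene nahoda had 68.1, 89.3 and 109 CPM in SvbREP, 12.4, 7.13 and 10.3 in SvbACT, 15.1, 16.7 and 14.0 in svb RNAi and 34.2, 36.1 and 27.4 in control (log2 fold change -1.22, SE 0.220, edgeR adjusted p = 0.000758). In svb RNAi CG4781 reached 6.74 ± 2.16 CPM, against 61.1 ± 13.0 in control, and CG11378 7.70 ± 2.65 against 37.6 ± 3.22 CPM (SD, n = 3 each). CG42542 was lower (log2 fold change -1.38), as was prage (-1.44). The svb RNAi mean of CG8034 was 77.1% of control, that of CG6891 77.8%, that of olf413 55.5% and that of mthl5 62.6%; the calls of olf413 and CG6891 were lost when single libraries were left out. CG6959 had 46.5, 41.6 and 68.9 CPM in SvbREP, 15.4, 8.36 and 17.1 in SvbACT, 32.8, 42.2 and 44.8 in svb RNAi and 21.2, 41.1 and 20.4 in control, so svb RNAi overlapped control (log2 fold change 0.42, SE 0.301, edgeR adjusted p = 0.401). CG43340, CG43078, CG13008, CG12851 and CG31296 were not called either, with log2 fold changes of -0.44, -0.72, -1.07, -0.93 and -0.02. Without svb RNAi replicate 1, CG13008 was at -2.09 and called lower (edgeR adjusted p = 0.0269; range over the 17 alternatives -2.09 to -0.72). CG43078 was called lower without SvbACT replicate 3 (log2 fold change -0.73, edgeR adjusted p = 0.0494; range -0.83 to -0.61).

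The levels that chose the members are given here by svb RNAi call, as a description without a test. The 34 members lower in svb RNAi had a median ratio of SvbREP to SvbACT of 3.62 and the 25 that were not called 4.13. Median SvbACT levels were 46.7% of control in the 34 and 45.5% in the 25, and median SvbREP levels 1.73 and 1.71 times control. In svb RNAi the medians were 30.5% of control in the 34 and 94.4% in the 25, which the call itself separates. Of the 21 members called both higher in SvbREP and lower in SvbACT, 16 were lower in svb RNAi, among them Nha2, CG6330, CG7992, PGRP-LB, Mmp1, stl, Chs2, nahoda, olf413, fng, beat-IIa, mnd, CG18635, CG6891 and dlp. The 5 not called were CG42524, CG3987, CG43340, Gdh and Piezo.

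The members shared some features of gene structure that the choice did not use directly. Their median gene span was 8004.5 bp, against 2979 bp over 7461 protein-coding genes tested, and their median exonic length 3218 bp against 2238 bp. The longest annotated protein had a median of 656.5 residues in the members and 487 in all coding genes tested. These are descriptions without a test, and longer transcripts collect more reads at the same abundance. By chromosome, 19 members were on 3R, 15 on 3L, 12 on 2R, 8 on 2L, 6 on X and 0 on 4. The shares were 31.7% of members and 24.4% of coding genes tested for 3R, and 10.0% and 17.3% for X. Within 50 kb of another member lay 11 members in 7 pairs. Adjacent pairs were CG31296 and AOX1, 663 bp apart, and Dscam4 and cert, which are transcribed towards each other with 129 bp between them. Of Dscam4 and cert, cert was lower in svb RNAi and Dscam4 was not called.

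Exons of 14 members overlap exons of another gene in the table, in 15 pairs that are all on opposite strands. Strand use in the counting is not given in the sources used here, so reads from the overlap cannot be assigned. Pof, over Mmp1, averaged 23.4 CPM in SvbREP, 21.8 in SvbACT, 21.3 in svb RNAi and 19.0 in control, while Mmp1 averaged 368 CPM in SvbREP, 34.9 in SvbACT, 14.7 in svb RNAi and 165 in control. Pof was thus above Mmp1 in svb RNAi. CG10589, over fng, averaged at most 2.42 CPM in any group, and CG5854, over Gdh, at most 26.2 CPM. For CG3987 the partner was higher than the member in control. CG3987 averaged 36.4 ± 10.9 CPM in SvbREP, 2.13 ± 0.823 in SvbACT, 6.13 ± 3.76 in svb RNAi and 11.8 ± 2.11 in control (SD, n = 3 each). The overlapping asRNA:CR45600 averaged 1.68 CPM in SvbREP, 1.72 in SvbACT, 97.1 in svb RNAi and 101 in control. In SvbREP and SvbACT the antisense gene was near the floor while the member ran from its highest to its lowest level.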

How the data were processed

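RNA from sorted cells was made into Ovation SoLo libraries and read from one end for 100 nt, per the labels' protocols. The submitters' processing notes name FastQC 0.11.5, STAR 2.5.2b, HTSeq 0.6.0, edgeR and build dm6; the annotation and the strand setting are not given in the sources used here. The deposited table holds whole-number counts per gene without normalization, and the authors' log2 fold changes, p-values and calls (coded as a score) for 5 comparisons; of these only the deposited calls for svb RNAi were set beside the calls here.

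CPM is the count divided by the library total. Tests used edgeR 4.0.16 in R 4.3.3 (glmQLFit, glmQLFTest; TMM; 4 group means; filterByExpr with minimum count 10, total 15, proportion 0.7), adjusted by Benjamini-Hochberg over 7992 genes, and were tested on simulated data. The SE of a fitted log2 change was taken as its size over the root of the test's F statistic. Intervals (exact binomial, 95%) and floors (3 counts) cover counting error only, since amplified reads are not independent molecules. P-values set a difference between group means against the spread between samples, estimated over the 4 groups together. That spread may be partly technical. Positions come from the Ensembl annotation (BDGP6.54, dm6 coordinates), which held 8686 of 8802 table genes. Members, gene lists and role groups were chosen with earlier results of these data known, and role groups after the member names were seen. Members were named if they had 1 of the 10 largest SvbREP to SvbACT ratios, 1 of the 10 highest SvbREP means, up to 8 of the smallest p per direction in svb RNAi, calls in both SvbREP and SvbACT, a place on a marker list (0 members), a place next to a threshold, a textbook role, or a neighbouring or overlapping member; the others follow in groups. Promoter motifs and sequences were not analysed here. The values of 1 member are not reported here. Alternatives were other scalings, filters, a replicate block, DESeq2 1.42.0 and leaving out each library.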

Additional observations from a re-analysis of the deposited data

How the results depend on the processing

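The 60 members became 54 with TMM factors and 55 with DESeq2 size factors, 106 with no minimum ratio and 36 with a ratio of 3. Leaving out 1 library gave 63 to 99, the highest without SvbREP replicate 3. The order of groups is easier to meet with fewer libraries, so larger counts follow from the rule. Of the 60 members, 55 to 60 were kept. In svb RNAi, 30 to 37 members were lower under 17 alternatives (30 to 35 without 1 library), as were 11% to 15.9% of all genes tested, and 31 of 54 members chosen with TMM factors, an alternative added after seeing the data. The single higher member gave counts of 0 to 1 without 1 library. In SvbREP 13 to 26 members were higher and in SvbACT 35 to 48 lower without 1 library. Whether replicate numbers pair the libraries was not settled. Correlations of deviations between libraries of the same number ran from -0.0809 to 0.248 over 18 pairs (mean 0.146, 15 over 0.1). Libraries of different numbers were not compared. With the replicate block, 37 members were lower and 1 higher in svb RNAi, and 33 were higher in SvbREP and 54 lower in SvbACT. Of the 35 members called in svb RNAi, 30 were called under every one of the 17 alternatives; Chs2, olf413, CG6891, Ptp99A and AOX3 lost the call without 1 library, and 0 changed sign. Among the 25 not called, 7 changed sign around 0 and 5 gained a call under at least 1 alternative (CG3987, CG13008, CG43078, Pgant6 and RapGAP1). Leaving out 1 library, the log2 fold change ran from -0.40 to 0.042 for CG42524, -0.33 to 0.13 for CG31296, -0.30 to 0.16 for Mp, -0.72 to 0.14 for AOX1, -0.44 to 0.17 for Fur1, -0.16 to 0.052 for bru2 and -0.066 to 0.077 for Epac. Mp was at 0.00748 with the compared groups alone, and Epac at -0.00735 with no filter on low counts. The authors' deposited table called 35 members lower and 1 higher, including all 34 lower ones given here. Genes near the floor, such as Cht2, are limited by depth. Promoter motifs of the members were not run.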

Other observations

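The antisense RNAs left out by name met the same levels. asRNA:CR44169 had 52.9, 40.2 and 32.0 CPM in SvbREP, 15.4, 15.3 and 13.7 in SvbACT, 32.8, 37.1 and 28.6 in svb RNAi and 26.3, 22.9 and 25.6 in control, and was not called in svb RNAi (log2 fold change 0.26, edgeR adjusted p = 0.408). asRNA:CR43468 had 13.2, 6.97 and 7.60 CPM in SvbREP, 2.98, 3.67 and 3.31 in SvbACT, 4.88, 8.83 and 1.45 in svb RNAi and 5.40, 5.51 and 5.32 in control (log2 fold change -0.25, edgeR adjusted p = 0.799). All 3 svb RNAi libraries of asRNA:CR44169 were above control.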
